A study of Mus musculus with 4 samples.

Results

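Interferon-stimulated genes are the genes that cells switch on when interferon, a cytokine of antiviral defence, binds its receptor. A list of 42 such genes was followed in cultured mouse mesenchymal stem cells (MSC), plastic-adherent stromal cells that can form bone, fat and cartilage. The lines compared were 2 colonic ones and 2 bone marrow ones from C57BL/6 mice, each on 1 Affymetrix expression array. All lines were dissociated with collagenase, selected by adherence to plastic, cultured with 10% serum and used at passages from 5 to 10. The labels call the arrays of a tissue biological replicates, but do not say from which or how many animals the lines came, so that p-values measure the spread between these lines only. The sources used here give neither the age of the animals nor a treatment with interferon. Members were all probe sets that the platform annotation pairs with exactly 1 symbol of the list, and 69 of 45101 probe sets met this rule. They cover 40 genes of 18193 in all. Isg15 and Ifi44 had no such probe set and were not analysed here. Of the 40 genes, 32 passed the filter on dim probe sets and were tested among 12920 genes, and 8 lay under it.

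Type I interferon binds a receptor made of Ifnar1 and Ifnar2. Receptor-bound kinases then phosphorylate STAT proteins, and Stat2, a partner STAT and Irf9 form a complex that binds a short DNA element in the promoters of target genes. Among the targets are sensors of viral nucleic acid, proteins that block viral entry, translation or budding, and proteins such as Irf7 and Usp18 that amplify or dampen the response. In stromal cells a low level of these genes is kept up without infection, and interferon-gamma, which raises an overlapping set of genes, is used to prime MSC in culture.

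The promoter windows below are those of the 5 genes with the largest mean difference between tissues among the members that the RefSeq promoter table holds. Each is 300 bases on the GRCm38.p6 build, with 250 bases before the gene's start and 50 after it, read 5′ to 3′ on the gene's strand. Capitals mark the core of the interferon response element, GAAANNGAA on either strand, and the gamma-activated site TTCNNNGAA, which reads the same on both strands.
Ifit3 (chr19:34583279-34583578, plus strand): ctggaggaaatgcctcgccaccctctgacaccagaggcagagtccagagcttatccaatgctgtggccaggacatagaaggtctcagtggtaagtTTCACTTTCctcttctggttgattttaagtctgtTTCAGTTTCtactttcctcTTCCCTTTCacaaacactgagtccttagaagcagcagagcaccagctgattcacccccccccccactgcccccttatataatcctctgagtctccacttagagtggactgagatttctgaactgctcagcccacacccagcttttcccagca
Bst2 (chr8:71537423-71537722, minus strand): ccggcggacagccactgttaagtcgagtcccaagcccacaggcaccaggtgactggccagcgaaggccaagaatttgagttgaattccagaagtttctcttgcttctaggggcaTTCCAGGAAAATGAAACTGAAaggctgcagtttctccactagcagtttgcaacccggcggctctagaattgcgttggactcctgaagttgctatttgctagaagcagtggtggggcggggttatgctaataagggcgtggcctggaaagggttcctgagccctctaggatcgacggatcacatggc
Irf7 (chr7:141266375-141266674, minus strand): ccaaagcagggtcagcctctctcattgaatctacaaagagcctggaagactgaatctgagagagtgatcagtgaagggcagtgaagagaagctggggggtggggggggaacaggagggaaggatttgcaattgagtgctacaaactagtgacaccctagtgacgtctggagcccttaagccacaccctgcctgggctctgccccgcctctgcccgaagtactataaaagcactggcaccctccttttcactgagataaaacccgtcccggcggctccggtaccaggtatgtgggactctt
Ifit1 (chr19:34640639-34640938, plus strand): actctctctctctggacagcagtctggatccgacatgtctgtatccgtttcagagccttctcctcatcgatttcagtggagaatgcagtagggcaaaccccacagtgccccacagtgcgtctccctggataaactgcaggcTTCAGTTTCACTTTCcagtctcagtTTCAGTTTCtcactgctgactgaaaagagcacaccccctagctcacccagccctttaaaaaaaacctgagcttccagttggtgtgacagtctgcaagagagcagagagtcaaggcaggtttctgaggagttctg
Ifih1 (chr2:62646206-62646505, minus strand): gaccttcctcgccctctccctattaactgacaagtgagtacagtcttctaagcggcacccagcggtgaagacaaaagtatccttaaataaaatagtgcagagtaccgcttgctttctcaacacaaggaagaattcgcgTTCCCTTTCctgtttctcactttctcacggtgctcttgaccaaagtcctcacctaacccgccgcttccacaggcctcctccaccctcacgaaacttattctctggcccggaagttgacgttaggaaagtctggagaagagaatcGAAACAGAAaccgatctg

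In the Ifit3 window the core of the response element occurred at 3 places, the nearest starting 102 bases before the gene's start. Ifit1 also had 3, the nearest starting 84 bases before the start, with the first 2 overlapping each other. Bst2 had 2 overlapping copies, the first of them overlapping a gamma-activated site. Ifih1 had 1 copy 112 bases before the start and 1 after it, and the Irf7 window held neither string of letters. The table matched 32 of the 42 listed genes, with 41 windows. Dhx58, Ifi27, Mx1, Mx2, Oas2, Parp14, Parp9, Rtp4, Usp18 and Zbp1 were not matched. The core of the response element was found in at least 1 window of 17 of the 32 genes (53.1%), against 9.8% of the 27025 genes in the table. The gamma-activated site was found in 10 of the 32 (31.2%), against 9.6%. Per window of the same length, the shares were 41.5% of 41 and 8.6% of 32851 for the response element, and 24.4% and 8.3% for the gamma-activated site. A match of letters describes the sequence and does not show that a protein binds there.

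Most members had a higher mean on the colonic arrays, but no member passed the test. The difference was computed on log2(intensity + 13.7), where 13.7 is 0.25 of the median of all values, and a log2 difference of 1 stands for a 2-fold ratio in bright genes only. Of the 40 genes with a probe set, taken without the filter, 33 had a positive colonic minus bone marrow difference (82.5%), against 52% of 18193 genes. At least 2-fold higher in the colonic lines were 11 of the 40 (27.5%), against 4.31% of all genes, and 1 was at least 2-fold lower, against 2.68%. Both colonic arrays lay above both bone marrow arrays in 21 of the 40 (52.5%, against 18.1% of all genes), and below them in 2 (5%, against 15.2%). The median difference of the 40 was 0.55 on the log2 scale and that of all genes 0.01. The median was 0.30 without colonic replicate 2 and likewise 0.30 without bone marrow replicate 2, while without bone marrow replicate 2 the positive differences numbered 28 (70%, against 49.1% of all genes).

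With limma over 12920 genes and a Benjamini-Hochberg adjusted p below 0.05 as the threshold, 0 of the 32 tested members were called, and so were 0% of all genes in either direction. At an unadjusted p below 0.05 stood 9 members with a positive difference, against 3.3% of all genes, and 1 with a negative one, Isg20, against 2.7%. The 9 were Usp18, Irf7, Ifih1, Bst2, Samd9l, Igtp, Ifit1, Ifit3 and Rsad2. At an adjusted p below 0.1 by limma there were 0 members, against 0.255% of all genes with a positive and 0.124% with a negative difference. The lowest adjusted p of any member was 0.142, that of Usp18. The mean was at least 2-fold higher in colon for 11 tested members (background 5.52%) and at least 2-fold lower for 1, Isg20 (background 3.51%). In 16 tested members both colonic arrays lay above both bone marrow arrays (background 18.4%), and in 2 both lay below (background 15.1%). In 4 members, Usp18, Irf7, Ifih1 and Bst2, even the lower colonic array was at least 2-fold above the higher bone marrow array (background 1.58%, or 1.18% of the genes without the filter). The reverse gap was seen in 0 members (background 1.11%, or 0.808% without the filter). Usp18 was the only tested member whose mean in 1 tissue lay under the filter, so that it passed through the colonic arrays alone.

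**Figure D1:**
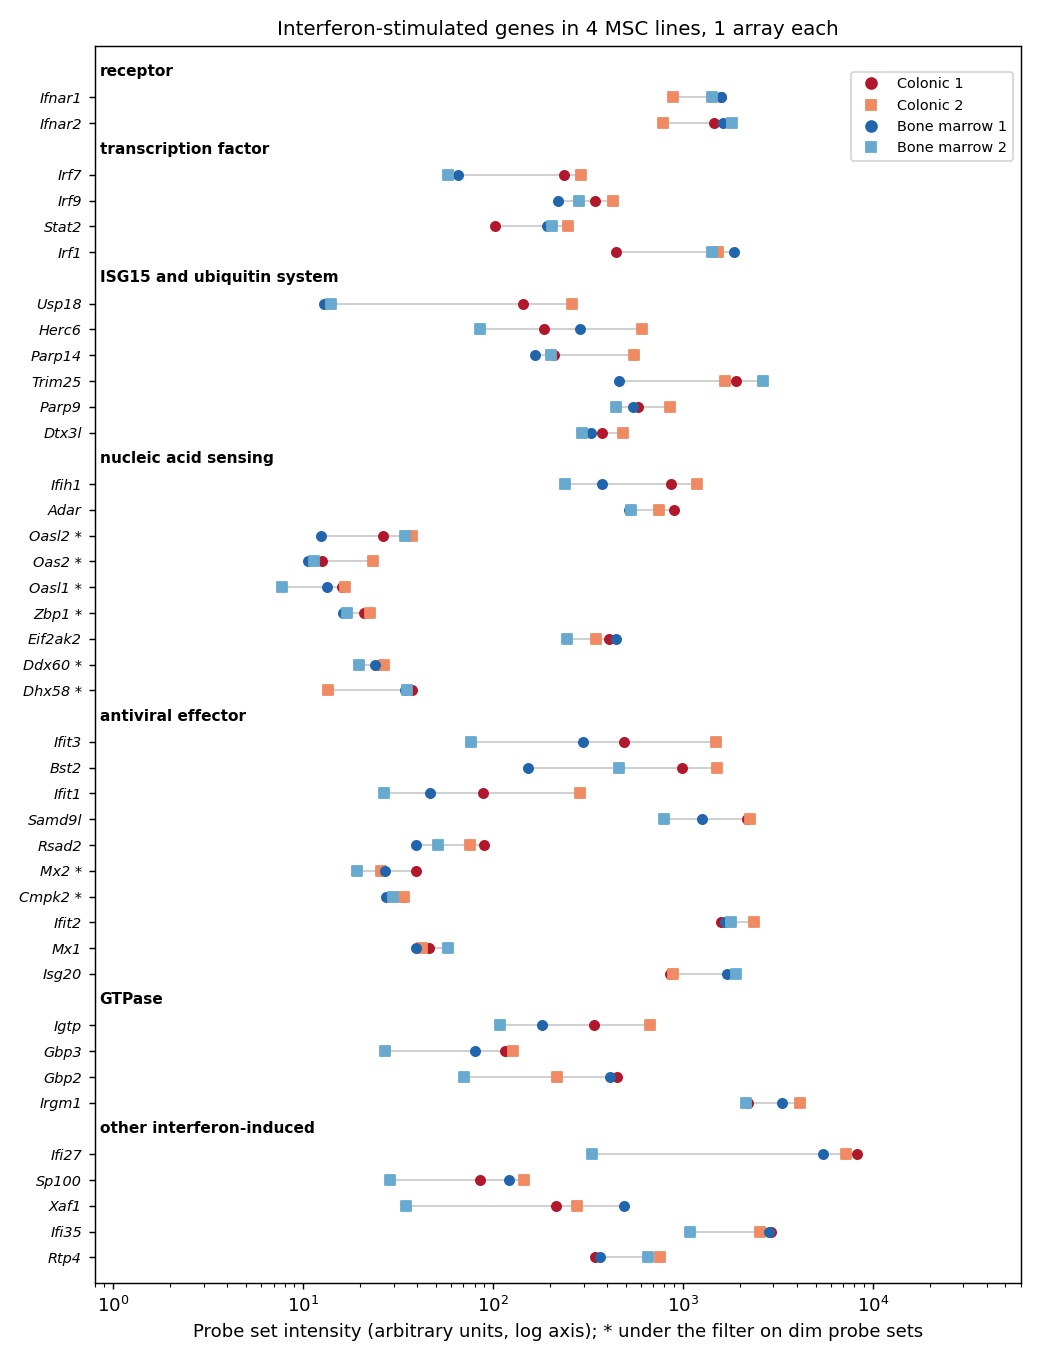
Probe set intensity in arbitrary units on a log axis for the 40 genes with a probe set, grouped by role, with red marks for the 2 colonic and blue marks for the 2 bone marrow lines and a grey line for the range. Usp18, Irf7, Ifih1 and Bst2 show red and blue marks wide apart, while the bone marrow lines lie far apart in Ifi27 (5446 and 331) and Xaf1 (492 and 34.7).

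Signals for the brightest probe set of each receptor gene were well above the median of the arrays in all lines, and lowest in colonic replicate 2. Ifnar1, the chain that recruits the kinase Tyk2, had intensities of 1583 and 883 in colonic MSC and 1585 and 1426 in bone marrow MSC. A second Ifnar1 probe set above the filter was dim, at 34.6 and 27.5 in colonic MSC and 46.8 and 49.8 in bone marrow MSC. In it the tissues did not overlap, with a log2 difference of -0.47, while they overlapped in the brightest, with -0.34. Ifnar2, the chain with the longer signalling tail, had 1460 and 783 in colonic MSC and 1635 and 1811 in bone marrow MSC. For Ifnar2 both colonic arrays lay below both bone marrow arrays, and its 3 probe sets gave log2 differences between -0.69 and -0.58. The difference of the representative probe set was -0.68 ± 0.38 (SE), with an adjusted p of 0.965 by limma, and -0.24 without colonic replicate 2.

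Of the 4 transcription factors, Irf7 had the widest gap between the tissues, Irf9 had a narrow one and the other two overlapped. Irf7, the factor that drives the later wave of interferon-alpha genes, was at 236 and 291 in colonic MSC and 65.6 and 58.2 in bone marrow MSC. The lines of a tissue lay near each other and the tissues lay apart, with a log2 difference of 1.87 ± 0.31 (SE, adjusted p = 0.267 by limma). Irf9, the DNA-binding part of the interferon-induced complex, had 344 and 430 in colonic MSC, against 221 and 284 in bone marrow MSC, without overlap. Stat2, its partner, had 102 and 250 in colonic MSC and 193 and 205 in bone marrow MSC, so that the bone marrow values fell between the colonic ones. A second Stat2 probe set gave a log2 difference of 0.35 where the first gave -0.28, which made Stat2 the only 1 of 12 members with several probe sets above the filter whose probe sets disagreed in sign. Irf1, a factor induced by interferon-gamma, had 447 and 1534 in colonic MSC and 1871 and 1429 in bone marrow MSC. Its low mean in colon came from colonic replicate 1, and its log2 difference was -0.97 ± 0.65 (SE), or -0.091 without that array.

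With the pseudocount used, Usp18 had the largest difference of any member. It encodes the protease that removes the ubiquitin-like protein ISG15 from its targets and also blocks signalling at Ifnar2. Usp18 was at 145 and 261 in colonic MSC and at 12.9 and 14.1 in bone marrow MSC. Both bone marrow values lay under the filter on dim probe sets, an intensity of about 31.9. The files hold no detection call, so whether those values stand above background is unknown. The log2 difference was 2.94 ± 0.36 (SE), with an adjusted p of 0.142 by limma. Its size depended on the pseudocount, being 3.75 with a pseudocount of 1 and 1.88 with the median of all values, where Ifi27 (2.42), Ifit3 (2.10) and Bst2 (1.97) were larger. Leaving out a line moved the log2 difference between 2.54 and 3.34 and the adjusted p between 0.0667 and 0.650.

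Other genes of ISG15 and ubiquitin conjugation differed less, and Herc6, Parp14 and Trim25 varied widely within a tissue. Herc6, the ligase that attaches ISG15 in mice, had 186 and 607 in colonic MSC and 286 and 85.0 in bone marrow MSC. The tissues overlapped in Herc6, whose mean log2 difference was 1.03 ± 0.82 (SE) with its brightest probe set. Its other probe sets, all above the filter, gave 0.60, 0.64 and 0.67. With the brightest probe set, leaving out colonic replicate 2 gave 0.21, and leaving out bone marrow replicate 2 gave 0.23. Parp14, an ADP-ribosyltransferase, stood at 210 and 552 in colonic MSC, against 166 and 203 in bone marrow MSC. Its RefSeq neighbours on chromosome 16, Dtx3l and Parp9, which encode a ubiquitin ligase and its partner, differed by 0.44 ± 0.35 and 0.50 ± 0.37 (SE) on the log2 scale. In all 3 of these neighbours the colonic arrays lay above the bone marrow arrays without overlap, though by small margins. Without colonic replicate 2 the log2 differences were 0.18 for Parp14, 0.26 for Dtx3l and 0.23 for Parp9. Trim25, the ligase that acts on the sensor RIG-I, had 1906 and 1658 in colonic MSC and 460 and 2635 in bone marrow MSC. The bone marrow lines thus bracketed the colonic ones, and without bone marrow replicate 1 the log2 difference of Trim25 was -0.56 in place of 0.68.

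Among genes that sense or edit nucleic acid, 3 of 9 passed the filter. Ifih1, which encodes the double-stranded RNA sensor MDA5, was at 865 and 1185 in colonic MSC and 374 and 240 in bone marrow MSC. The tissues did not overlap in Ifih1, and its log2 difference was 1.71 ± 0.40 (SE, adjusted p = 0.508 by limma). Adar, the enzyme that edits adenosine in double-stranded RNA, had 894 and 747 in colonic MSC, against 521 and 533 in bone marrow MSC. Its 2 probe sets above the filter gave log2 differences of 0.62 and 0.70. Eif2ak2, the RNA-activated kinase PKR, had 409 and 348 in colonic MSC and 442 and 246 in bone marrow MSC, with overlap in this brightest probe set. Its 3 probe sets above the filter gave log2 differences of 0.18, 0.08 and 0.64, and in the last the tissues did not overlap. Under the filter lay the oligoadenylate synthase family members Oas2, Oasl1 and Oasl2, the helicase genes Dhx58 and Ddx60, and Zbp1, a sensor of Z-form nucleic acid. The brightest array among these 6 genes was Oasl2 on colonic replicate 2, at 37.5.

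Among the antiviral effectors, members of the Ifit family differed in how far the tissues lay apart. Ifit1 and Ifit3 belong to the tetratricopeptide proteins that bind foreign RNA and block its translation. Ifit3 was at 490 and 1496 in colonic MSC and 298 and 76.2 in bone marrow MSC, a log2 difference of 2.38 ± 0.86 (SE, adjusted p = 0.792 by limma). Ifit1 was at 88.8 and 287 in colonic MSC and 46.6 and 26.9 in bone marrow MSC, a log2 difference of 1.83 ± 0.61 (SE). Without colonic replicate 2 that of Ifit1 was 1.05, and without bone marrow replicate 2 that of Ifit3 was 1.48. In both genes the order of the 4 lines was the same, with colonic replicate 2 highest and bone marrow replicate 2 lowest. Ifit2, which lies next to Ifit3 on chromosome 19 with 0 coding genes between them in RefSeq, had 1587 and 2372 in colonic MSC and 1677 and 1802 in bone marrow MSC. Its log2 difference was 0.16 ± 0.29 (SE), and the tissues overlapped. Whether Ifit2 differed from Ifit3 in its response to tissue was not tested.

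Bst2, or tetherin, holds budding virus particles at the cell surface. It had 992 and 1518 in colonic MSC and 153 and 463 in bone marrow MSC, without overlap. The log2 difference was 2.14 ± 0.62 (SE, adjusted p = 0.663 by limma), and 1.38 without bone marrow replicate 1. Samd9l, a cytosolic restriction factor, had 2169 and 2245 in colonic MSC, against 1269 and 801 in bone marrow MSC, a log2 difference of 1.12 ± 0.32 (SE). Rsad2, or viperin, which makes a chain-terminating nucleotide, was dim, at 89.6 and 75.9 in colonic MSC and 39.5 and 51.1 in bone marrow MSC. Its neighbour Cmpk2, a nucleotide kinase, lay under the filter, as did Mx2. Mx1, a dynamin-like GTPase that traps viral particles, had between 39.2 and 58.2 on the 4 arrays.

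Isg20 had a difference of the opposite sign to most effectors. It encodes an exonuclease that degrades single-stranded RNA. Isg20 had 859 and 888 in colonic MSC and 1710 and 1907 in bone marrow MSC. The lines of each tissue agreed closely and the tissues did not overlap. The log2 difference was -1.04 ± 0.25 (SE), with an adjusted p of 0.551 by limma, and leaving out any 1 line kept it between -1.12 and -0.96.

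The interferon-inducible GTPases, known in mice for attacking the vacuoles of intracellular pathogens and for their induction by interferon-gamma, had their lowest value in bone marrow replicate 2 in all 4 members tested. Igtp was at 342 and 668 in colonic MSC and 181 and 109 in bone marrow MSC, without overlap and with a log2 difference of 1.67 ± 0.50 (SE, adjusted p = 0.676 by limma). Gbp3 had 116 and 127 in colonic MSC and 80.9 and 27.2 in bone marrow MSC, a log2 difference of 1.12 ± 0.48 (SE), which became 0.51 when bone marrow replicate 2 was left out and 1.73 when bone marrow replicate 1 was. Gbp2, close to Gbp3 on chromosome 3, had 451 and 217 in colonic MSC, against 413 and 70.2 in bone marrow MSC. Irgm1, a regulator of the other GTPases, was at 2195 and 4155 in colonic MSC and 3321 and 2160 in bone marrow MSC. The tissues overlapped in Gbp2 and Irgm1, and without bone marrow replicate 2 their log2 differences were -0.38 and -0.14. Without colonic replicate 2 that of Irgm1 was -0.29.

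Ifi27, a small mitochondrial and nuclear envelope protein, had the widest gap within a tissue of any tested member. It had 8277 and 7267 in colonic MSC and 5446 and 331 in bone marrow MSC. A second probe set repeated this order of lines, with 5340 and 4477 in colonic MSC and 3192 and 262 in bone marrow MSC. The log2 difference was 2.50 ± 1.33 (SE, adjusted p = 0.964 by limma), and without bone marrow replicate 2 it was 0.51. Xaf1, an antagonist of an apoptosis inhibitor, had 216 and 277 in colonic MSC and 492 and 34.7 in bone marrow MSC. Ifi35 had 2905 and 2552 in colonic MSC and 2859 and 1098 in bone marrow MSC. Sp100, a nuclear body protein, had 85.5 and 146 in colonic MSC and 121 and 28.6 in bone marrow MSC. In Xaf1, Ifi35 and Sp100 the bone marrow replicate 1 value reached or passed a colonic one, and without bone marrow replicate 2 the log2 differences were -0.97, -0.07 and -0.10. Rtp4, a Golgi chaperone of receptors, ranged from 344 to 761 with a log2 difference of 0.06 ± 0.56 (SE).

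**Figure D2:**
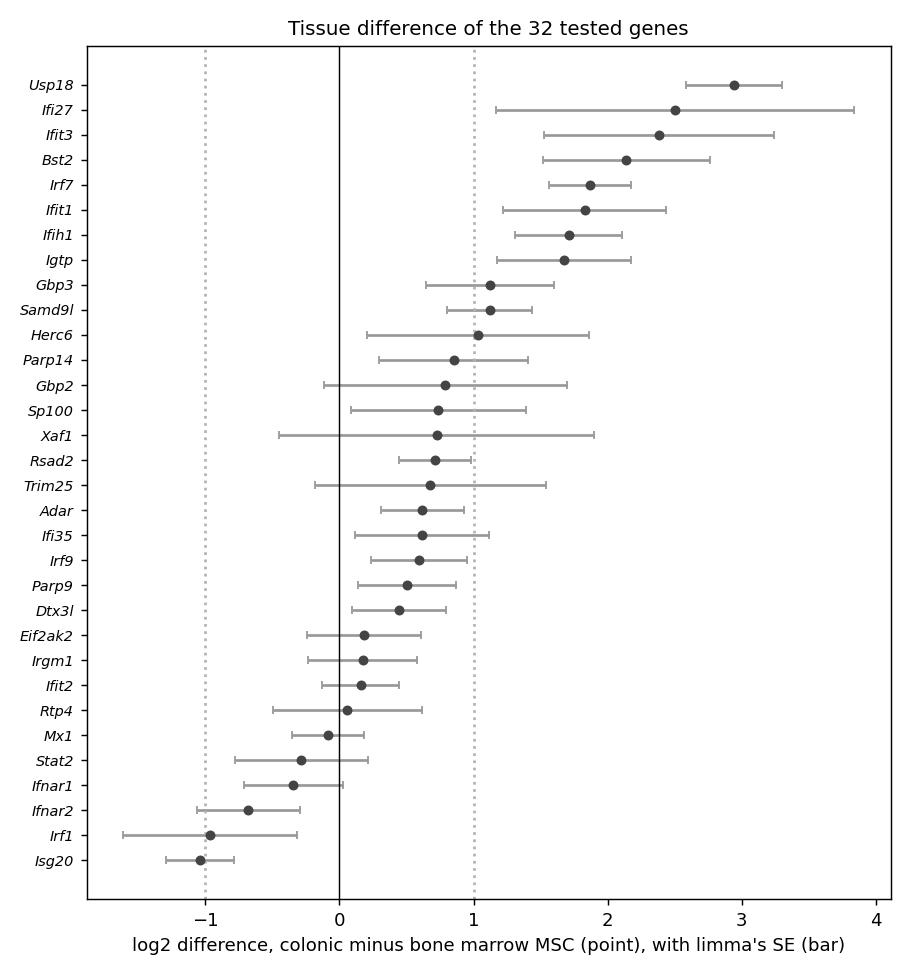
Colonic minus bone marrow log2 difference of the 32 tested genes, with bars for limma's standard error and dotted lines at a 2-fold difference. Usp18 stands highest at 2.94 and Isg20 lowest at -1.04, and the bars of Ifi27, Xaf1, Trim25 and Gbp2 are among the longest.

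Because several members turned on a single line, levels were also followed line by line. Each tested gene was set against its own mean over the 4 arrays. The median deviation of the 32 members was 0.20 and 0.53 on the log2 scale in colonic replicates 1 and 2, and -0.14 and -0.40 in bone marrow replicates 1 and 2. Over all genes tested, the medians lay between -0.04 and 0.03. Colonic replicate 2 held the highest value of 19 members (59.4%, against 22% of all genes), and bone marrow replicate 2 the lowest value of 17 (53.1%, against 32.5%). Lines of 1 tissue differed by a median of 0.56 on the log2 scale in colon and 0.59 in bone marrow over the members, against 0.33 and 0.31 over all genes tested. The variation between lines of a tissue was thus wider in the members than in the median gene.

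**Figure D3:**
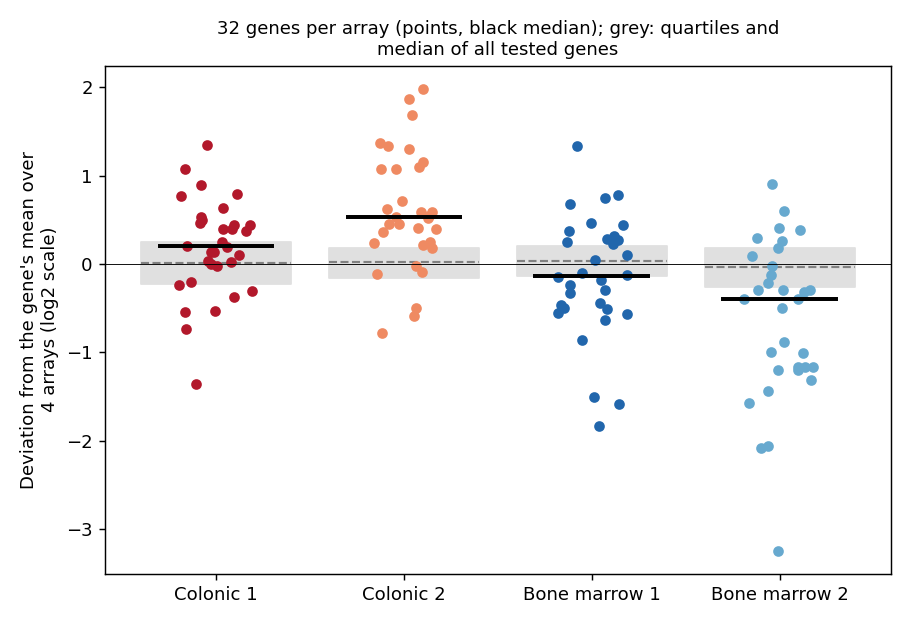
Deviation of each of the 32 genes from its mean over the 4 arrays (log2 scale), with a black line for their median and grey bands for the quartiles of all tested genes. The black lines stand at 0.20 and 0.53 on the colonic arrays and at -0.14 and -0.40 on the bone marrow arrays, and the lowest points are those of bone marrow replicate 2.

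The arrays themselves were alike, with median intensities of 53.7 to 55.7 and upper quartiles of 611 to 657. The stromal label was set against 12 marker genes, of which 11 had a probe set and passed the filter. The collagen genes Col1a1, Col1a2 and Col3a1 were at 6114 or more on every array, as were Cd44 and Itgb1 at 4867 or more. Other markers differed between lines or tissues. Thy1 was at 4516 and 9032 in colonic MSC and at 32.8 and 22.0 in bone marrow MSC, a log2 difference of 7.30 ± 0.47 (SE) with the smallest adjusted p of all genes, 0.0502 by limma. Its mean in bone marrow MSC lay under the filter, so that Thy1 passed through the colonic arrays alone. With bone marrow values this dim, the size of the difference depends on the pseudocount. Pdgfra had 492 and 743 in colonic MSC and 1609 and 2493 in bone marrow MSC, and Pdgfrb 3377 and 3844 in colonic MSC and 5042 and 4686 in bone marrow MSC. Vcam1 was at 2281 and 266 in colonic MSC and 2206 and 2535 in bone marrow MSC, Eng ranged from 330 to 1323 over the arrays, and Nt5e reached no more than 209. Of 10 leukocyte markers, 7 passed the filter. Their summed intensity over all 10 was 1764 and 1712 in colonic MSC and 3548 and 1223 in bone marrow MSC. Ptprc, Adgre1 and Tyrobp were under the filter, between 1.00 and 32.1 on all arrays. Cd14 passed it, at 963 and 573 in colonic MSC and 810 and 735 in bone marrow MSC. Csf1r passed it too, at 324 and 244 in colonic MSC, against 266 and 148 in bone marrow MSC. Cd68, Itgam and Laptm5 were above the filter but dim, at 91.4 or less. The sum of bone marrow replicate 1 was raised by Lyz2 (1589) and Fcer1g (640), and bone marrow replicate 2, where many members were lowest, had the lowest sum. The part of such cells in the member levels was not tested, and in bulk RNA fewer cells of a type cannot be told apart from less RNA per cell. Plasmacytoid dendritic cells, a main source of interferon, express Bst2 too. Of their other 3 markers, Siglech and Ccr9 were under the filter, at 44.3 or less, while Tcf4, a factor of many cell types, passed it. Tcf4 was at 2373 and 1689 in colonic MSC and 3997 and 4706 in bone marrow MSC, the opposite direction to Bst2. The sum with Bst2 included was 3405 and 3263 in colonic MSC and 4189 and 5209 in bone marrow MSC. Summed endothelial markers were at 147 and 136 in colonic MSC and 89.2 and 50.7 in bone marrow MSC. Kdr passed the filter, at 91.1 and 68.9 in colonic MSC, against 31.9 and 18.5 in bone marrow MSC, and so did Tek. Both genes passed through the colonic arrays alone, as their bone marrow means lay under the filter. Pecam1 and Cdh5 were under it, at 24.2 or less, and in Cdh5 the tissues overlapped. Summed epithelial markers were at 984 and 104 in colonic MSC and 90.5 and 102 in bone marrow MSC, the first value being mostly Krt20 (889). Epcam, Vil1 and Cdx2 were under the filter, at 25.6 or less, and Cdh1 passed it at 44.8 or less.

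Genes that make, sense or transmit interferon came from a list of 40 symbols outside the members. A probe set was found for 34, 25 passed the filter, and 0 passed limma's threshold. Their median log2 difference was 0.06. Ifnb1, the gene of interferon-beta, passed the filter with overlap between the tissues, at 34.2 and 50.9 in colonic MSC and 61.9 and 23.8 in bone marrow MSC. Ifng, the gene of interferon-gamma, lay under the filter, at 2.54 or less. At an unadjusted p below 0.05, 1 of the 25 had a positive difference (4%, against 3.3% of all genes tested) and 3 a negative one (12%, against 2.7%). Sting1, the adaptor of cytosolic DNA sensing, was the positive one, at 1179 and 1085 in colonic MSC, against 633 and 359 in bone marrow MSC. Ifngr1, the ligand-binding chain of the interferon-gamma receptor, had 2277 and 2082 in colonic MSC and 3866 and 4486 in bone marrow MSC, a log2 difference of -0.93 ± 0.19 (SE, adjusted p = 0.389 by limma). Socs3, a feedback inhibitor of cytokine receptors, had 503 and 1044 in colonic MSC and 2130 and 2114 in bone marrow MSC, a log2 difference of -1.53 ± 0.42 (SE). The third, Samhd1, a restriction factor that breaks down nucleotides, had 2914 and 3842 in colonic MSC and 4897 and 5520 in bone marrow MSC. Ddx58, the gene of the sensor RIG-I, had 1466 and 1082 in colonic MSC and 959 and 337 in bone marrow MSC, and Ifnlr1, the receptor chain for interferon-lambda, stayed at 82.8 or less. Irf3, the factor that starts interferon transcription, differed by 0.21 ± 0.19 (SE) on the log2 scale.

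A second list of 45 interferon-stimulated genes outside the members had 34 with a probe set and 28 above the filter. Of these 28, 22 had a positive difference (78.6%, against 51.5% of all genes tested) and 0 passed limma's threshold. An unadjusted p below 0.05 was reached by 2 with a positive difference (7.14%, against 3.3%) and by 0 with a negative one (against 2.7%). The median log2 difference was 0.22, against 0.01 over all genes tested. By array, the median deviation of the 28 from each gene's mean was -0.03 and 0.28 in colonic replicates 1 and 2. In bone marrow replicates 1 and 2 it was 0.07 and -0.40, so that bone marrow replicate 1 lay above colonic replicate 1. Trim30a, a mouse tripartite-motif protein that restrains inflammatory signalling, was at 199 and 363 in colonic MSC and 50.3 and 15.4 in bone marrow MSC, a log2 difference of 2.72 ± 0.54 (SE, adjusted p = 0.389 by limma). It was among the 2 genes with an unadjusted p below 0.05. Its mean in bone marrow MSC lay under the filter on dim probe sets, so that it passed through the colonic arrays alone. Slfn2, a regulator of lymphocyte quiescence, had 400 and 135 in colonic MSC and 70.2 and 57.8 in bone marrow MSC. Psmb8, a subunit of the immunoproteasome, had 64.4 and 79.9 in colonic MSC and 44.2 and 38.1 in bone marrow MSC. Trim34a had 436 and 468 in colonic MSC, against 259 and 48.7 in bone marrow MSC. Irgm2, a relative of Irgm1, had 383 and 561 in colonic MSC and 323 and 116 in bone marrow MSC. Helz2, a nuclear helicase, had 1019 and 930 in colonic MSC and 338 and 757 in bone marrow MSC. In Psmb8, Trim34a, Irgm2 and Helz2 the tissues did not overlap. Of the 28 genes, 7 lay higher in colon without overlap (25%, against 18.4% of all genes tested). None (0) lay lower without overlap, against 15.1%. Tap1, the peptide transporter of antigen presentation, had 476 and 514 in colonic MSC and 722 and 80.9 in bone marrow MSC, so that the bone marrow lines bracketed the colonic ones. The virus entry inhibitors Ifitm2 and Ifitm3 were bright in all lines and differed by 0.05 ± 0.16 and 0.03 ± 0.20 (SE) on the log2 scale. Ifitm1 had 44.0 and 48.7 in colonic MSC and 225 and 41.9 in bone marrow MSC.

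**Figure D4:**
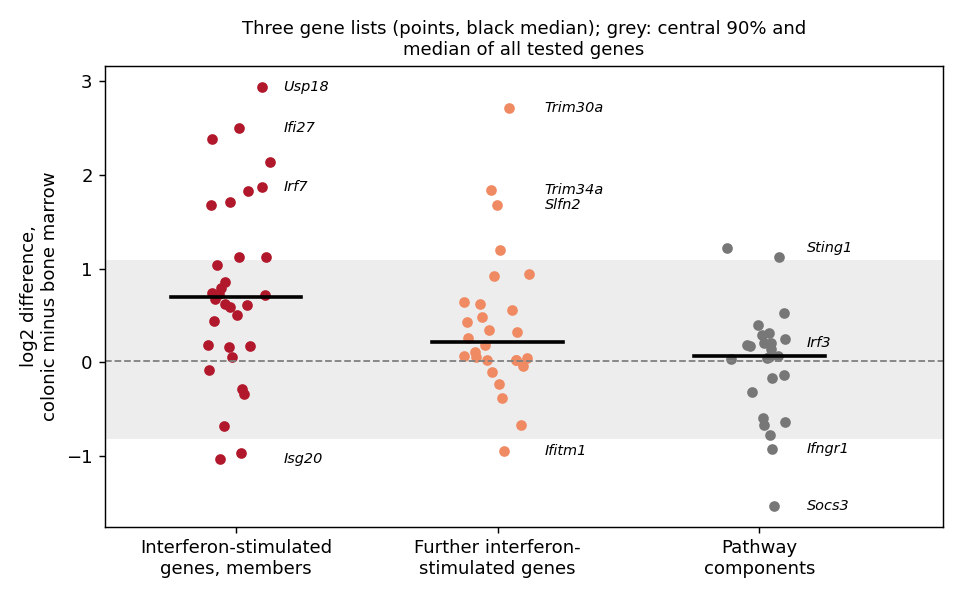
Colonic minus bone marrow log2 difference of the tested genes in the member list, in the second list of interferon-stimulated genes and among pathway components, with a black line for each median and grey for the central range and median of all tested genes. The medians stand at 0.69, 0.22 and 0.06, and Usp18 and Trim30a are the highest points of their lists. Both of these genes passed the filter through the colonic arrays alone.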

How the data were processed

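RNA of the cultured MSC lines was amplified, biotin-labelled and read on Affymetrix MOE230.2 arrays, per the labels' protocols and the series' text. Each deposited value is the intensity of 1 probe set, linear by its range. How the authors summarised probes, corrected background or scaled arrays is not given in the sources used here, so probe sets are not compared as amounts, and no detection call was used. The number of arrays limits the precision.

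The deposited scaling was kept, as array medians differed by 0.04 on the log2 scale. Control probe sets (64) were left out. Values were taken as log2(intensity + 13.7), where 13.7 is 0.25 of the median of the deposited values, 54.6. Probe sets with a mean above the 40th percentile were tested, the brightest standing for its gene. The contrast of colonic minus bone marrow was fitted in R 4.3.3 by limma 3.58.1 (lmFit, eBayes with intensity trend, tissue as the only term, 2 residual degrees of freedom, two-sided, Benjamini-Hochberg over 12920 genes, threshold 0.05). With 2 arrays a tissue, exact permutation allows no p under 0.333, so none is given. SE is limma's. No set test was run.

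The members and gene lists were chosen with earlier results of these data known. All members could be named. Array values are given for the 12 largest differences, the 6 widest ranges within a tissue, the 6 brightest, the receptors and transcription factors, and for the first 6 genes by p of the pathway list and of the second list, with Ifnb1, Ifngr1 and Irf3. Values of further members, and Tap1, Ifitm1, Ifitm2, Ifitm3 and Ifng, were chosen after their values were seen. Promoter sequences and gene order are RefSeq's, on GRCm38.p6. Alternatives were other scalings, pseudocounts, filters and eBayes settings, the mean of probe sets, the replicate block and each array left out in turn.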

Additional observations from a re-analysis of the deposited data

How the results depend on the processing

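No member passed an adjusted p of 0.05 under any of the alternatives run, and 0 passed 0.1 in the fit as reported. Over all genes the count of 0 became 17 after median centring, 13 after quantile normalization, 15 when the pseudocount was 1, 12 when probe sets were averaged, 15 when the filter stood at the 60th percentile, 15 under robust eBayes, 13 without its intensity trend and 49 at an adjusted p of 0.1, and it ranged from 0 to 34 with 1 array left out. The cause was not tested. With quantile normalization, median centring, both other pseudocounts, no filter, no intensity trend and robust eBayes, the differences of the 32 members kept their sign, as they did for the 26 left by the 60th percentile filter. With the mean of probe sets only Stat2 changed sign, to 0.034, since its probe sets disagree. Leaving out each array in turn, the median member difference ranged from 0.42 to 0.69 (0.44 without colonic replicate 2, 0.42 without bone marrow replicate 2), or from 0.30 to 0.60 over the 40 genes with no filter, which was added after seeing the data. Of these 40, 8 to 15 were then at least 2-fold higher in colon, against 3.48% to 6.82% of all genes. Among the tested members, 1 to 2 were at least 2-fold lower in colon. Those below bone marrow without overlap numbered 3 to 6, which 3 arrays reach more easily than 4. The shares over all genes for these lower counts are not given here, so the counts cannot be judged against a background. Signs changed for Stat2 without colonic replicate 1, for Irgm1, Ifit2, Ifnar1 and Rtp4 without colonic replicate 2, for Trim25 and Rtp4 without bone marrow replicate 1, and for Irgm1, Ifi35, Eif2ak2, Gbp2, Xaf1, Sp100 and Mx1 without bone marrow replicate 2. These differences ranged from -0.22 to 0.59 for Eif2ak2, -0.38 to 1.97 for Gbp2, -0.070 to 1.30 for Ifi35, -0.13 to 0.45 for Ifit2, -0.76 to 0.073 for Ifnar1, -0.29 to 0.63 for Irgm1, -0.31 to 0.13 for Mx1, -0.50 to 0.62 for Rtp4, -0.10 to 1.57 for Sp100, -0.87 to 0.31 for Stat2, -0.56 to 1.92 for Trim25 and -0.97 to 2.42 for Xaf1. The replicate numbers are not known to pair the lines (r = 0.11 between the deviations of same-numbered arrays over 12920 genes). With the replicate number as a block, 0 members passed and 7, in place of 10, had an unadjusted p below 0.05 by limma. The share of all genes below that unadjusted p with the block is not given here. The files give no detection call, so whether a dim value stands above background is unknown.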
